A study of Mus musculus with 6 samples.

Results

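The genes described here are 43 genes that act in G2 and mitosis, taken from a table of 55335 mouse gene identifiers. They were read from the table by name, after its identifiers had been matched to gene symbols, and all 43 were found. RNA had been sequenced from primary microglia of C57BL/6 mice, which came from the brains of newborn animals, grew in mixed glial cultures and were shaken off on day 14. All microglia carried an intact Cd177 gene. They were kept for 24 h together with neutrophils, which had been sorted magnetically from spinal cord lesions at 3 days after the injury. The neutrophil donors were adult male mice that either had Cd177, a surface protein of neutrophils (WT neutrophils, 3 libraries), or lacked it (KO neutrophils, 3 libraries). After co-culture, the microglia were separated by flow sorting as cells negative for Ly6G, a neutrophil surface protein. The 6 libraries therefore share the microglia, the injury and the co-culture, and differ in the genotype of the neutrophils. Microglia without neutrophils were not analysed here. Separate cultures or animals are not named for the libraries of one arm, so p-values measure the spread between these libraries, which may be technical.

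A dividing cell that has copied its DNA passes through G2, enters mitosis when cyclin-dependent kinase 1 (CDK1) is switched on by cyclin B, pulls the chromosome copies apart on a spindle and is cut apart in cytokinesis. Exit from mitosis depends on the anaphase-promoting complex (APC/C), which marks cyclin B and the inhibitor of separase for destruction once the spindle assembly checkpoint is satisfied. Most of these genes are transcribed late in the cycle and are low in resting cells, because a complex of MuvB with DREAM partners holds their promoters silent in G0 and G1, and the same MuvB core with B-MYB and FOXM1 turns them on in G2. Microglia are long-lived cells that divide slowly in the healthy brain and divide more after injury and in culture with glial growth factors.

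The promoter elements through which these genes are known to be controlled are the cell cycle homology region (CHR), TTTGAA, which MuvB binds, and the CCAAT box, which the factor NF-Y binds. The 250 bases before the RefSeq transcription start (mouse build GRCm38.p6) are shown for 4 genes that mark proliferation or drive mitosis. Each runs 5′ to 3′ on the strand of its gene, with TTTGAA or CCAAT in capitals on either strand, so that a reverse match reads TTCAAA or ATTGG.
Mki67, minus strand of chr7:135716380-135716629: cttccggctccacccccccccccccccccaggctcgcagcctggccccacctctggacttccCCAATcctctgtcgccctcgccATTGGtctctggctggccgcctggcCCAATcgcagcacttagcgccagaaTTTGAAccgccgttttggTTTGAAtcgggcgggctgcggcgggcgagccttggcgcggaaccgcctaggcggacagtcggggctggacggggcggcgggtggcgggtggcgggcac
Top2a, minus strand of chr11:99024190-99024439: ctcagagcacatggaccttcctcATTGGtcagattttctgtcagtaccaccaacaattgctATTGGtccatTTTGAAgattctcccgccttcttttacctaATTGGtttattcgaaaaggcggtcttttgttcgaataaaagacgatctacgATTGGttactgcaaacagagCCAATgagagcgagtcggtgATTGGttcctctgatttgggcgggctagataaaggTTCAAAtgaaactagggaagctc
Cdk1, minus strand of chr10:69352913-69353162: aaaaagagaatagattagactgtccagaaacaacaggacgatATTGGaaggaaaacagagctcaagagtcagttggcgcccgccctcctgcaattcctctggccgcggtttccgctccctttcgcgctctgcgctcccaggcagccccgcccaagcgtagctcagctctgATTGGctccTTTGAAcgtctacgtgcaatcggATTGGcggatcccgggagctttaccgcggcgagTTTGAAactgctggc
Plk1, plus strand of chr7:122159185-122159434: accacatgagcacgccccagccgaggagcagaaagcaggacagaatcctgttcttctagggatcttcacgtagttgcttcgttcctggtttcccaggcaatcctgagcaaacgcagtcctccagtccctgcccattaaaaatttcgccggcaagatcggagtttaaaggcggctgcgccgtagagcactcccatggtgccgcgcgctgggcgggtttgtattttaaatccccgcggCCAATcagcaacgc

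Mki67, Top2a and Cdk1 each held 2 copies of TTTGAA in these 250 bases. Plk1 held none there, and 1 that began 31 bases after the start. A RefSeq promoter, counted from 250 bases before to 50 after the start, was found for 36 of the 43 genes. TTTGAA on either strand lay in 28 of them (77.8%), and CCAAT on either strand in 29 (80.6%). Of the promoters of all 27025 mouse genes in that table, 20.2% held TTTGAA and 41.1% held CCAAT. Both elements stood together in 25 of the 36 promoters (69.4%), against 7.97% of all genes. The promoters of the DNA replication genes listed for comparison had TTTGAA in 6 of 32 (18.8%) and CCAAT in 20 of 32 (62.5%). Those of further mitosis genes had each element in 33 of 55 (60%) and both in 22 of 55 (40%). Those of the constitutive centromere network had TTTGAA in 3 of 15 (20%) and CCAAT in 11 of 15 (73.3%). Among the genes called higher below, 20 of 25 promoters held TTTGAA, and among those not called 8 of 10 did (80% each). The promoters of Ccnb1 and Bub1 held 2 CCAAT each and no TTTGAA in these 300 bases. A match to these letters is a description of the sequence and not a bound site.

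**Figure D1:**
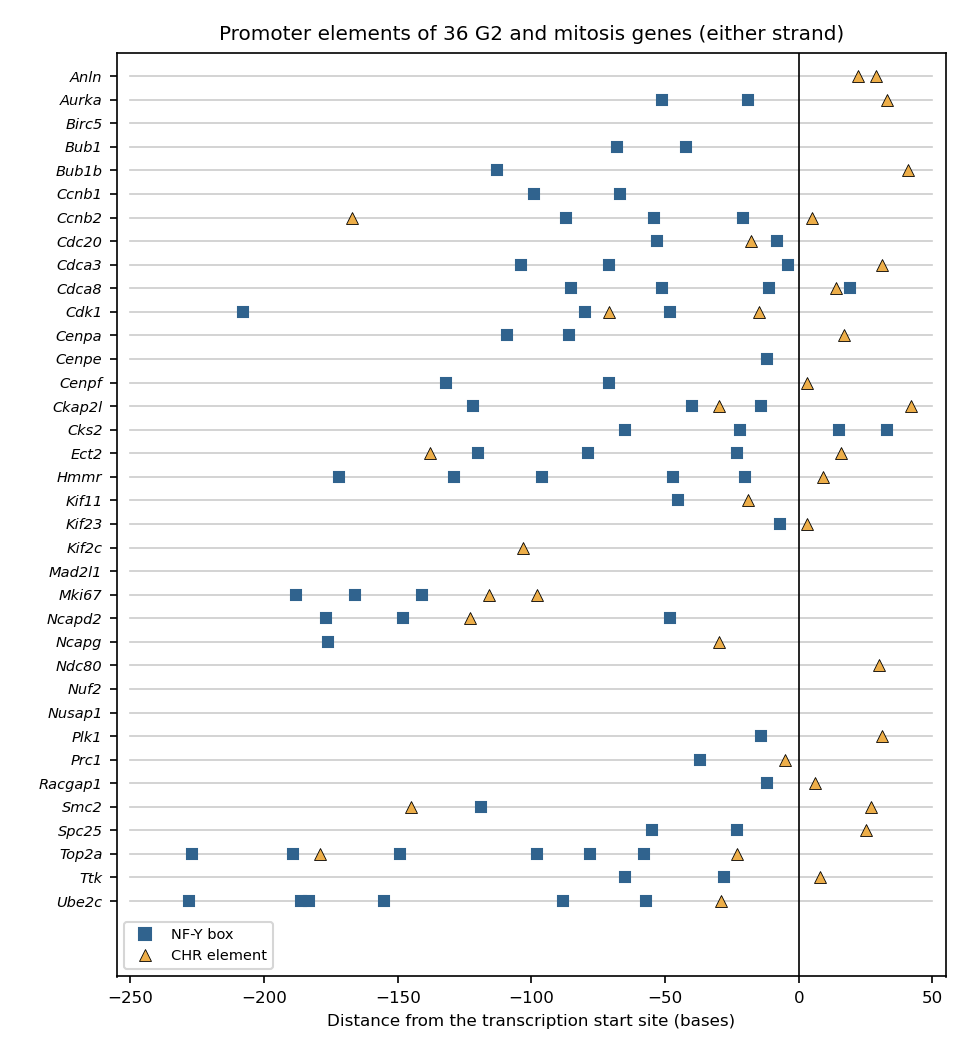
Positions of the CHR element (TTTGAA, orange triangles) and of the NF-Y box (CCAAT, blue squares), on either strand, in the 36 RefSeq promoters, one gene per line, with the distance from the transcription start in bases on the x axis. CHR elements lie mostly near or just after the start and NF-Y boxes mostly before it, and 4 genes (Birc5, Mad2l1, Nuf2 and Nusap1) show neither.

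All levels are FPKM (fragments per kilobase of transcript scaled to the mapped fragments of the library), a scale that allows for gene length. A call is an adjusted p under 0.05 in limma, fitted on log2(FPKM + 1) over the 11395 genes that averaged 1 FPKM or more and adjusted over all of them by the Benjamini-Hochberg method. Log2 changes are KO minus WT neutrophils on that scale, and folds are ratios of mean FPKM. All 43 genes were tested. The libraries of an arm resembled each other across all genes (Pearson's r from 0.988 to 0.989 over 6 pairs) more than libraries of different arms did (r from 0.957 to 0.959 over 9 pairs), and an approximate depth read from the spacing of low values was 15.9 to 19.3 in units of 1e+06 fragments per library. The sorted cells expressed the macrophage markers at a summed level of 2690 to 2740 FPKM with WT neutrophils and 2790 to 2830 FPKM with KO neutrophils, but the single markers moved in opposite directions. Of 12 macrophage markers, 6 were called higher and 3 lower, with Laptm5 going from 45.4 to 83.0 FPKM (log2 change 0.86, adjusted p = 7.4e-06), Cd14 from 474 to 136 FPKM (log2 change -1.79, adjusted p = 4.09e-08) and Adgre1, the antigen F4/80, from 101 to 39.3 FPKM (log2 change -1.34, adjusted p = 1.74e-06). Among microglia markers, Trem2 went from 12.0 to 28.0 FPKM (log2 change 1.15, adjusted p = 2.34e-05) and Cx3cr1 from 2.74 to 1.14 FPKM (log2 change -0.81, adjusted p = 0.00148), both further than the median of the 43 genes. Sall1, Fcrls and C1qa were listed at 0 in all 6 libraries, and P2ry12 and Tmem119, which define microglia in the resting brain, stayed under a mean of 1 FPKM.

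In microglia cultured with KO neutrophils, G2 and mitosis genes were mostly a little higher than in microglia cultured with WT neutrophils. Of the 43 genes, 29 were called higher (67.4%), 1 was called lower (2.33%) and 13 were not called. Among all genes tested, 24.5% were called higher and 18.8% lower, so the share of these genes called higher was above the background and the share called lower was below it. The median WT level was 15.7 FPKM for the 43 genes and 7.84 FPKM for all genes tested, and no share at matched level was computed. Of the calls over all genes, 43.4% were lower, and 54.9% were lower when each library was rescaled to the same total (TPM scale), a scaling under which 26 of the 43 genes were called higher and 1 lower. The median log2 change of the 43 genes was 0.22, or 19.2% in FPKM, beside a median of 0.024 over all genes tested. The largest rise was that of Cenpa, at 1.90-fold. The 3 libraries of one arm did not overlap with those of the other for 36 genes, of which 35 were higher with KO neutrophils and 1 lower, while 31.3% of all genes were separated in the higher direction and 24.6% in the lower. None of the 43 exceeded a 2-fold fitted change on the log2(FPKM + 1) scale at an unadjusted p under 0.05, as 2.57% of all genes did, none had a 2-fold ratio of mean FPKM, and 35 of the 43 had an unadjusted limma p under 0.05, beside 5870 of the 11395 genes tested. In bulk RNA a larger number of dividing cells and more of these transcripts per dividing cell cannot be told apart.

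The size of the changes was small against the levels and large against the spread. Mean levels ran from 3.28 to 52.0 FPKM with WT neutrophils and from 3.23 to 64.9 FPKM with KO neutrophils. Over the 43 genes the coefficient of variation between libraries of one arm had a median of 2.95% with WT and 3.53% with KO neutrophils. Only 5 genes reached a fold of 1.4, namely Cenpa, Kif20a, Ccnb2, Nusap1 and Ncapd2, and 9 of the 29 genes called higher had a fold under 1.2. Between the log2 change and the WT level, Spearman's rho was -0.04 and Pearson's r -0.13 (n = 43 genes, all measured in the same 6 libraries).

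Taken library by library, the shift was alike in the 3 KO libraries. The median deviation of the 43 genes from their WT mean, on the log2(FPKM + 1) scale, was 0.23, 0.21 and 0.23 in KO libraries 1, 2 and 3, and -0.013, 0.0058 and 0.0056 in WT libraries 1, 2 and 3. The medians over all genes in the KO libraries were 0.024 to 0.026. In KO libraries 1, 2 and 3, 42, 39 and 39 of the 43 genes stood above their WT mean. In WT libraries 1, 2 and 3, which make up that mean, 12, 23 and 26 did. This count was not made over all genes. The summed level of the 43 genes was 894.9, 906.6 and 917.0 FPKM with WT neutrophils and 1074, 1065 and 1067 FPKM with KO neutrophils. The sum of all FPKM was itself higher in the KO libraries (323588 to 326868) than in the WT libraries (314085 to 315632). With every library rescaled to a total of 1e+06, the 43 genes summed to 2850 to 2920 with WT and 3260 to 3290 with KO neutrophils. Mitochondrial transcripts took 11.1% to 11.3% of the FPKM with WT and 14.3% to 14.6% with KO neutrophils, and with libraries scaled on nuclear genes alone 29 of the 43 genes were called higher and 1 lower.

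**Figure D2:**
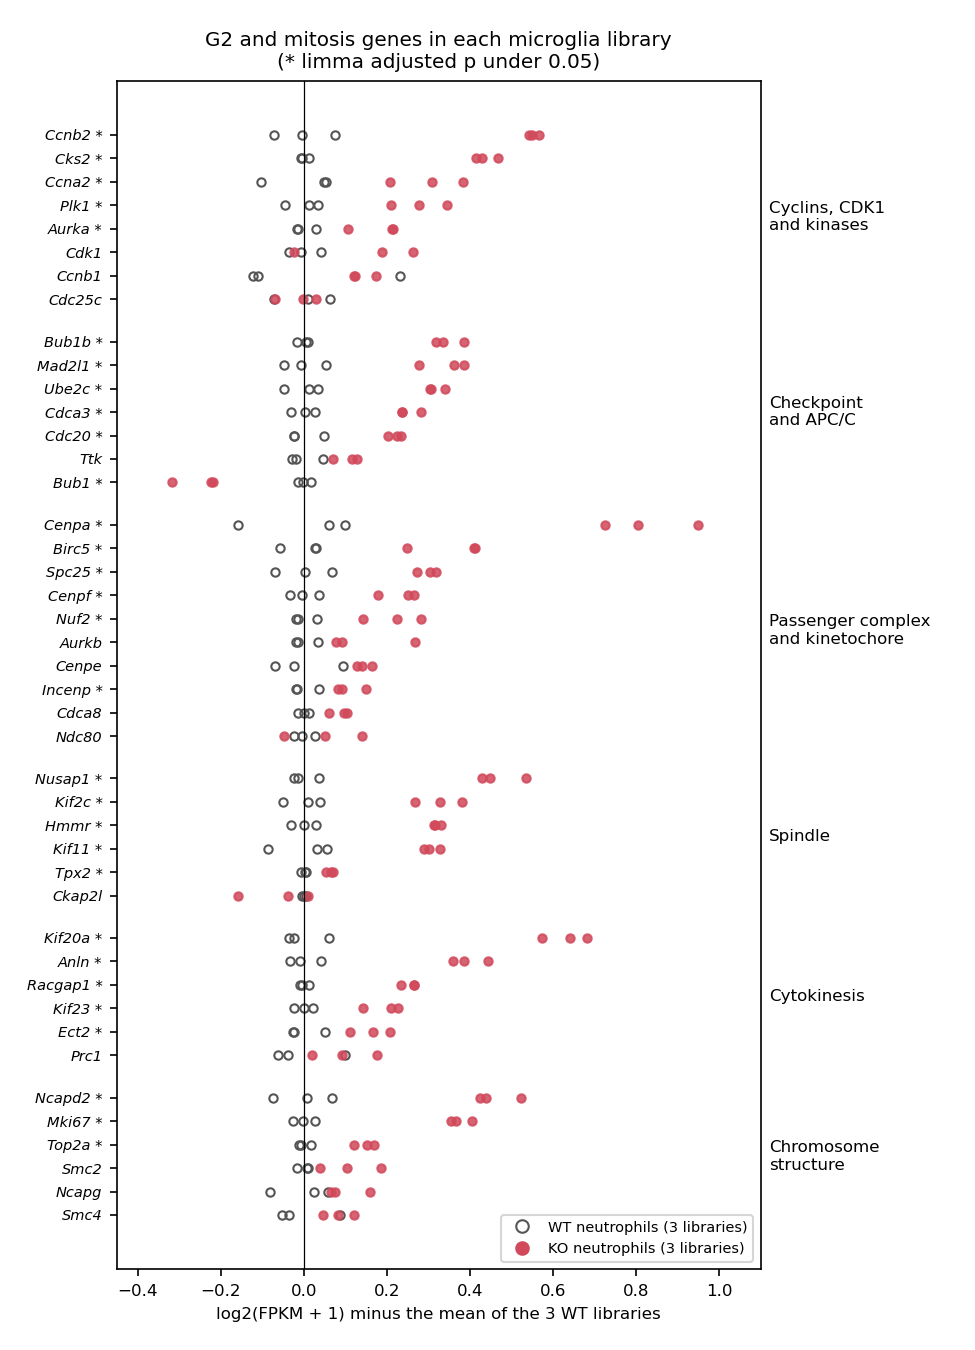
Each of the 43 genes on a line, grouped by role, with the value of each library as log2(FPKM + 1) minus the mean of the 3 WT libraries on the x axis (open circles, WT neutrophils, filled circles, KO neutrophils, asterisk, limma adjusted p under 0.05). Most filled circles lie to the right of the open ones, Cenpa reaches farthest to the right, and Bub1 is the one called gene on the left.

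Of the 8 genes for the kinase engine of mitotic entry, 5 were called higher and 3 were not called, with a median log2 change of 0.23. Ccnb2, a B-type cyclin found on the Golgi, was measured at 27.9, 29.3 and 31.0 FPKM with WT neutrophils and 43.5, 44.1 and 43.3 FPKM with KO neutrophils. Its arms were far apart at 1.48-fold (log2 change 0.55, SE 0.040, adjusted p = 0.000113). Cks2, a small subunit that helps CDK1 to phosphorylate its substrates in steps, was measured at 37.0, 37.0 and 37.5 FPKM with WT neutrophils and 49.9, 50.4 and 51.8 FPKM with KO neutrophils, 1.36-fold higher (log2 change 0.44, SE 0.024, adjusted p = 3.46e-05), the smallest p of this group. Among the 50-base stretches of Cks2, 29.7% also occur in other annotated genes, mostly processed copies, so its reads may be shared with them. Plk1, the polo-like kinase that activates the phosphatases that switch CDK1 on and later acts at centrosomes and kinetochores, was measured at 26.9, 25.8 and 27.3 FPKM with WT neutrophils and 31.0, 32.5 and 34.1 FPKM with KO neutrophils. The lowest KO value lay above the highest WT value, and the fold was 1.22 (log2 change 0.28, SE 0.043, adjusted p = 0.00281). Ccna2, the cyclin of S phase and G2 that is destroyed early in mitosis, went from 24.0 ± 1.51 to 29.7 ± 1.87 FPKM (mean ± SD, n = 3 per arm, log2 change 0.30, SE 0.062, adjusted p = 0.00936). Aurka, the kinase of centrosomes and spindle poles, went from 33.1 ± 0.622 to 37.6 ± 1.65 FPKM (log2 change 0.18, SE 0.038, adjusted p = 0.0104).

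The core of that engine was not called. Cdk1 itself stood at 16.2, 15.3 and 15.6 FPKM with WT neutrophils and 19.0, 18.0 and 15.4 FPKM with KO neutrophils (log2 change 0.14, 95% interval -0.039 to 0.32, adjusted p = 0.173). KO library 3 lay within the WT range, and without it the log2 change of Cdk1 was 0.23 (adjusted p = 0.0139, range 0.0139 to 0.405 over 16 alternatives). Ccnb1, the main cyclin partner of CDK1 in mitosis, stood at 28.8, 29.0 and 37.0 FPKM with WT neutrophils and 34.3, 35.5 and 34.2 FPKM with KO neutrophils (log2 change 0.14, 95% interval -0.092 to 0.37, adjusted p = 0.285). WT library 3 was above every KO library, and without it the log2 change of Ccnb1 was 0.26 (adjusted p = 0.00283, range 0.00283 to 0.577). For Ccnb1, 23.4% of 50-base stretches recur in other annotated genes, among them its own pseudogene. Cdc25c, a phosphatase that removes the inhibitory phosphates from CDK1, was the lowest of all 43 genes, at 3.46, 3.31 and 3.07 FPKM with WT neutrophils and 3.36, 3.07 and 3.27 FPKM with KO neutrophils (log2 change -0.014, 95% interval -0.16 to 0.13, adjusted p = 0.863). Its arms overlapped completely.

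The 7 genes of the spindle assembly checkpoint and of APC/C activity included the only member called lower. Of these, 5 were called higher, Bub1 was called lower and Ttk was not called. Bub1b encodes BubR1, the checkpoint protein that binds and blocks CDC20, and was measured at 28.3, 28.8 and 28.7 FPKM with WT neutrophils and 37.7, 35.9 and 36.4 FPKM with KO neutrophils. Its libraries were tight in both arms, 1.28-fold apart (log2 change 0.35, SE 0.028, adjusted p = 0.000169). Bub1, the kinase that recruits BubR1 to kinetochores and marks the inner centromere for shugoshin, went the other way, with 52.2, 51.5 and 51.1 FPKM with WT neutrophils and 44.2, 41.2 and 44.1 FPKM with KO neutrophils. Every KO library was below every WT library, and the mean fell by 16.4% (log2 change -0.25, SE 0.033, adjusted p = 0.00147). No exon of another annotated gene overlaps Bub1, and none of its 50-base stretches recurs in another gene. Mad2l1, the checkpoint protein Mad2, went from 7.20 ± 0.289 to 9.40 ± 0.402 FPKM (log2 change 0.34, SE 0.048, adjusted p = 0.00192). Ttk, the kinase Mps1 that starts the checkpoint signal, was 9.59, 10.1 and 9.54 FPKM with WT neutrophils and 10.6, 10.3 and 10.7 FPKM with KO neutrophils, with KO libraries above WT libraries but too close for a call (log2 change 0.10, 95% interval 0.011 to 0.20, adjusted p = 0.072).

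On the APC/C side, Cdc20, the activator that the checkpoint restrains, went from 47.2 ± 1.41 to 55.1 ± 0.592 FPKM (log2 change 0.22, SE 0.028, adjusted p = 0.00132). Ube2c, the ubiquitin-conjugating enzyme that primes APC/C substrates, went from 36.2 ± 1.07 to 45.3 ± 0.668 FPKM (log2 change 0.32, SE 0.030, adjusted p = 0.000337). Of the exonic bases of Ube2c, 22.8% overlap Tnnc2 on the other strand. Cdca3, a trigger of mitotic entry that the APC/C destroys in G1, went from 13.8 ± 0.294 to 16.6 ± 0.313 FPKM (log2 change 0.25, SE 0.032, adjusted p = 0.00131). The 3 rose by 1.17-fold to 1.25-fold, with no overlap between the arms.

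**Figure D3:**
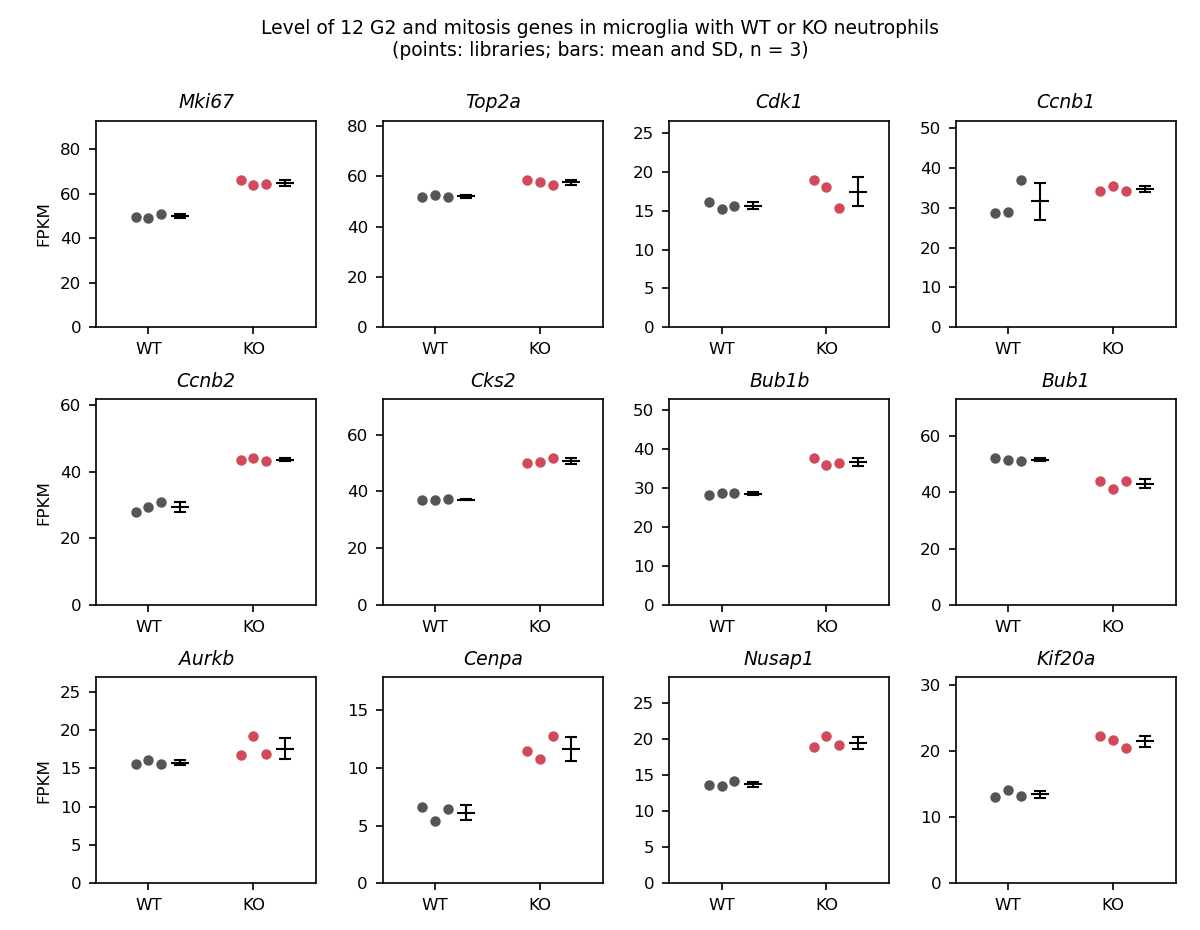
FPKM of 12 of the genes in each library (points, 3 per arm), with the mean and SD of each arm beside them and every y axis starting at 0. The KO points lie above the WT points for Mki67, Top2a, Ccnb2, Cks2, Bub1b, Aurkb, Cenpa, Nusap1 and Kif20a and below them for Bub1, while those of Cdk1 and Ccnb1 overlap.

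The 10 genes of the chromosomal passenger complex and the kinetochore were 6 called higher and 4 not called, with a median log2 change of 0.18. Cenpa encodes the histone H3 variant that marks every centromere and is deposited there after mitosis. It was measured at 6.62, 5.38 and 6.43 FPKM with WT neutrophils and 11.5, 10.8 and 12.8 FPKM with KO neutrophils, from a mean of 6.14 ± 0.671 to 11.7 ± 1.01 FPKM (log2 change 0.83, SE 0.089, adjusted p = 0.000605), which was the largest change of all 43. Even the lowest KO library was far above the highest WT library. Of the 4 passenger complex genes, Birc5 (survivin) went from 11.8 ± 0.427 to 15.4 ± 1.05 FPKM (log2 change 0.36, SE 0.056, adjusted p = 0.00309) and Incenp, the scaffold that activates Aurora B, from 34.3 ± 0.772 to 37.1 ± 0.971 FPKM (log2 change 0.11, SE 0.031, adjusted p = 0.0305). The call of Incenp held under 9 of 16 alternatives and was lost, among others, without WT library 1 or 3 or KO library 1 or 2 and on the TPM scale (adjusted p from 0.0262 to 0.182 over 16 alternatives). Aurkb, the kinase of the complex, stood at 15.6, 16.2 and 15.5 FPKM with WT neutrophils and 16.7, 19.2 and 16.9 FPKM with KO neutrophils (log2 change 0.15, 95% interval 0.0089 to 0.28, adjusted p = 0.0814). Its KO libraries were all above its WT libraries, 2 of them only slightly. Cdca8 (borealin) stood at 12.7, 13.0 and 12.9 FPKM with WT neutrophils and 13.5, 13.9 and 13.8 FPKM with KO neutrophils (log2 change 0.087, 95% interval 0.013 to 0.16, adjusted p = 0.0622).

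At the outer kinetochore, the NDC80 complex binds microtubules end-on, and 3 of its genes were on the list. Spc25 went from 11.4 ± 0.588 to 14.2 ± 0.257 FPKM (log2 change 0.30, SE 0.044, adjusted p = 0.00238) and Nuf2 from 5.71 ± 0.128 to 6.81 ± 0.377 FPKM (log2 change 0.22, SE 0.050, adjusted p = 0.0144). Ndc80 stood at 8.01, 8.34 and 8.14 FPKM with WT neutrophils and 8.50, 7.86 and 9.11 FPKM with KO neutrophils, with overlapping arms (log2 change 0.048, 95% interval -0.087 to 0.18, adjusted p = 0.526). Cenpf, a large protein of the fibrous corona, went from 8.17 ± 0.217 to 9.77 ± 0.345 FPKM (log2 change 0.23, SE 0.042, adjusted p = 0.00541). Cenpe, the kinesin that carries chromosomes to the spindle equator, stood at 14.8, 14.3 and 16.2 FPKM with WT neutrophils and 16.6, 17.0 and 16.7 FPKM with KO neutrophils (log2 change 0.14, 95% interval 0.029 to 0.26, adjusted p = 0.0509). Without WT library 3, the highest of its arm, Cenpe had a log2 change of 0.19 (adjusted p = 0.0124, range 0.0124 to 0.161).

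Spindle genes were 5 called higher of 6, with the highest median log2 change of the 6 roles at 0.31. Nusap1, which bundles spindle microtubules near chromosomes, was measured at 13.6, 13.5 and 14.1 FPKM with WT neutrophils and 18.9, 20.4 and 19.1 FPKM with KO neutrophils. The arms were 1.41-fold apart (log2 change 0.47, SE 0.040, adjusted p = 0.000219). Hmmr, a spindle assembly factor at microtubule poles, was measured at 21.7, 22.6 and 22.2 FPKM with WT neutrophils and 27.8, 28.2 and 27.9 FPKM with KO neutrophils, with hardly any spread within an arm (log2 change 0.32, SE 0.027, adjusted p = 0.000219). Kif11, the kinesin Eg5 that pushes spindle poles apart, went from 19.1 ± 1.06 to 23.9 ± 0.333 FPKM (log2 change 0.31, SE 0.044, adjusted p = 0.00209), and Kif2c, a kinesin that takes microtubules apart to correct attachments, from 9.41 ± 0.328 to 12.0 ± 0.507 FPKM (log2 change 0.33, SE 0.045, adjusted p = 0.0018). Tpx2, which activates Aurora A on the spindle, was among the most abundant of the 43 but moved least of those called, from 51.0 ± 0.213 to 53.3 ± 0.343 FPKM (log2 change 0.063, SE 0.020, adjusted p = 0.0443). Its call held under 6 of 16 alternatives and was lost when any 1 of the 6 libraries was left out, and on the TPM scale its log2 change was 0.014 (adjusted p = 0.609, range 0.0333 to 0.609). Ckap2l (radmis) stood at 23.0, 23.2 and 23.1 FPKM with WT neutrophils and 23.3, 22.5 and 20.6 FPKM with KO neutrophils (log2 change -0.062, 95% interval -0.18 to 0.051, adjusted p = 0.328). Its 3 WT libraries were nearly equal, and the KO libraries lay around and below them.

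Of the 6 cytokinesis genes, 5 were called higher, with a median log2 change of 0.22. Kif20a, the kinesin that carries the passenger complex to the midzone, was measured at 13.1, 14.1 and 13.2 FPKM with WT neutrophils and 22.2, 21.6 and 20.5 FPKM with KO neutrophils, 1.59-fold higher (log2 change 0.63, SE 0.044, adjusted p = 8.58e-05), the second largest change of the 43. Of its exonic bases, 29.3% overlap Cdc23 on the other strand, which went from 5.98 to 6.47 FPKM and was not called (log2 change 0.10, adjusted p = 0.226), and whether the counting used strand is not given in the sources used here. Anln (anillin), which ties the contractile ring to the membrane, went from 10.7 ± 0.316 to 14.3 ± 0.464 FPKM (log2 change 0.40, SE 0.039, adjusted p = 0.000433). Kif23 and Racgap1 form centralspindlin, the complex that sets the place of the furrow. Kif23 went from 11.1 ± 0.186 to 12.8 ± 0.427 FPKM (log2 change 0.19, SE 0.037, adjusted p = 0.00725) and Racgap1 from 16.5 ± 0.141 to 19.9 ± 0.257 FPKM (log2 change 0.26, SE 0.027, adjusted p = 0.000601). Ect2, the RhoA activator that centralspindlin recruits, went from 10.5 ± 0.349 to 11.9 ± 0.431 FPKM (log2 change 0.16, SE 0.042, adjusted p = 0.0223). The call of Ect2 held under 10 of 16 alternatives and was lost, among others, without WT library 1 or 3 or KO library 1 or 2 and on the TPM scale (adjusted p from 0.0179 to 0.0685 over 16 alternatives). Prc1, which bundles the midzone microtubules on which the others gather, stood at 7.03, 7.17 and 7.99 FPKM with WT neutrophils and 8.48, 7.50 and 7.95 FPKM with KO neutrophils, with overlapping arms (log2 change 0.10, 95% interval -0.058 to 0.25, adjusted p = 0.271).

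The genes for chromosome structure included both common proliferation markers, and 3 of 6 were called higher. Mki67, the antigen Ki-67 that coats mitotic chromosomes and is absent from resting cells, was measured at 49.7, 48.9 and 50.7 FPKM with WT neutrophils and 66.3, 63.9 and 64.4 FPKM with KO neutrophils. The arms were 1.30-fold apart and did not overlap (log2 change 0.38, SE 0.026, adjusted p = 8.12e-05). Top2a, the topoisomerase that untangles sister DNA, was measured at 51.6, 52.7 and 51.8 FPKM with WT neutrophils and 58.6, 57.9 and 56.6 FPKM with KO neutrophils. Its rise was small but well outside the spread, at 1.11-fold (log2 change 0.15, SE 0.023, adjusted p = 0.0033). Condensin folds chromosomes for mitosis, and its subunits did not move equally. Ncapd2, of condensin I, was measured at 12.0, 13.4 and 12.8 FPKM with WT neutrophils and 18.7, 17.4 and 17.6 FPKM with KO neutrophils, 1.41-fold higher (log2 change 0.46, SE 0.049, adjusted p = 0.000582). Ncapg, of the same complex, stood at 10.8, 11.8 and 12.1 FPKM with WT neutrophils and 12.1, 12.2 and 13.0 FPKM with KO neutrophils, with arms that nearly touched (log2 change 0.10, 95% interval -0.023 to 0.22, adjusted p = 0.16).

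The 2 ATPases shared by both condensins were not called. Smc2 stood at 18.3, 18.3 and 18.0 FPKM with WT neutrophils and 20.8, 18.7 and 19.6 FPKM with KO neutrophils (log2 change 0.11, 95% interval 0.0068 to 0.21, adjusted p = 0.081), and Smc4 at 28.3, 31.0 and 28.0 FPKM with WT neutrophils and 30.0, 31.7 and 30.9 FPKM with KO neutrophils (log2 change 0.083, 95% interval -0.026 to 0.19, adjusted p = 0.185). All KO libraries of Smc2 lay above its WT libraries, and those of Smc4 overlapped with them. Without KO library 2 the log2 change of Smc2 was 0.145 (adjusted p = 0.0387, range 0.0387 to 0.257), and without WT library 2 that of Smc4 was 0.13 (adjusted p = 0.0379, range 0.0379 to 0.564).

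Ratios of partner genes within a library do not depend on how libraries are scaled. The 5 pairs were chosen because their members had moved unequally, so the ratios restate those values on another scale and are given without a test. Bub1b stood at 0.542, 0.559 and 0.562 of the FPKM of Bub1 with WT neutrophils and at 0.853, 0.872 and 0.825 with KO neutrophils. Ccnb2 stood at 0.972, 1.01 and 0.838 of Ccnb1 with WT and at 1.27, 1.24 and 1.26 with KO neutrophils. The FPKM of Ccnb2 was thus close to that of Ccnb1 in WT libraries 1 and 2 and below it in WT library 3. It was above that of Ccnb1 in all 3 KO libraries. The 2 cyclins are not ranked by abundance, because part of the Ccnb1 sequence recurs in other genes. Ncapd2 was 0.658 to 0.729 of Smc2 with WT and 0.895 to 0.928 with KO neutrophils. Nuf2 was 0.677 to 0.719 of Ndc80 and then 0.787 to 0.816. Birc5 was 0.699 to 0.774 of Aurkb and then 0.835 to 0.947.

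A further 7 lists of other cell cycle genes were set beside the 43. Of 70 further mitosis genes, 34 were called higher (48.6%) and 3 lower (4.29%), beside 24.5% and 18.8% of all genes, with a median log2 change of 0.15, and on the TPM scale the counts were 22 and 5. Pimreg, a nuclear protein abundant in mitosis, went from 23.3 ± 0.545 to 30.8 ± 0.683 FPKM (log2 change 0.39, adjusted p = 0.000155), Kifc1, a minus-end kinesin that gathers spindle poles, from 9.55 ± 0.477 to 12.9 ± 0.147 FPKM (log2 change 0.40, adjusted p = 0.000618), and Wee1, the kinase that holds CDK1 inactive, from 6.42 ± 0.176 to 8.85 ± 0.395 FPKM (log2 change 0.41, adjusted p = 0.000746). The 3 lower genes were Zwint, a kinetochore protein (14.8 ± 0.452 to 11.7 ± 0.860 FPKM, log2 change -0.32, adjusted p = 0.0055), Mis12, of the complex that links kinetochore and centromere (21.1 ± 0.420 to 17.6 ± 0.534 FPKM, log2 change -0.25, adjusted p = 0.0018), and Lin54, the DNA-binding subunit of MuvB (9.50 ± 0.0939 to 8.01 ± 0.102 FPKM, log2 change -0.22, adjusted p = 0.00273). Foxm1, the transcription factor of G2 genes, stood at 7.40, 8.05 and 7.85 FPKM with WT neutrophils and 8.77, 3.62 and 7.98 FPKM with KO neutrophils and was not called (log2 change -0.24, 95% interval -0.91 to 0.42, adjusted p = 0.51). KO library 2 was far below the other KO libraries for Foxm1, and without it the log2 change was 0.095 (adjusted p = 0.28, range 0.258 to 0.64 over 16 alternatives). Mybl2, the gene of B-MYB, went from 28.8 ± 0.550 to 34.1 ± 0.572 FPKM and was called higher (log2 change 0.23, adjusted p = 0.000878).

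The lists of centromere and APC/C genes had medians near that of all genes. Of 15 genes of the constitutive centromere network, 3 were called higher (20%) and 2 lower (13.3%), beside 24.5% and 18.8% of all genes, with a median log2 change of 0.022. Cenpm (3.23 to 4.64 FPKM, log2 change 0.41, adjusted p = 0.00275) was the clearest rise and Cenpw (7.04 to 5.50 FPKM, log2 change -0.31, adjusted p = 0.0121) the clearest fall. Of 16 APC/C genes, 6 were called higher (37.5%) and 3 lower (18.8%), with a median of 0.015, and 3 were called higher when low genes were not filtered out or when the minimum mean was 5 FPKM. The catalytic core subunit Anapc2 was higher (18.0 to 23.8 FPKM, log2 change 0.38, adjusted p = 0.000165), and the activator-binding subunit Cdc27 (26.9 to 23.1 FPKM, log2 change -0.21, adjusted p = 0.00635) and Fzr1, the activator of G1 (9.90 to 8.62 FPKM, log2 change -0.18, adjusted p = 0.00902), were lower. Of 12 cohesin genes, which hold sister chromatids together until anaphase, 7 were called higher (58.3%) and 1 lower (8.33%), with a median of 0.18. Smc3, a cohesin ATPase, rose (27.8 to 36.2 FPKM, log2 change 0.37, adjusted p = 0.000271), and Wapl, which releases cohesin from DNA, was the one lower (40.7 to 35.5 FPKM, log2 change -0.19, adjusted p = 0.009).

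DNA replication genes, which act earlier in the cycle, were also mostly higher among those called. Of 40 genes, 21 were called higher (52.5%) and 3 lower (7.5%), beside 24.5% and 18.8% of all genes, and the median log2 change was 0.22. Pcna, the sliding clamp, was measured at 93.5, 98.2 and 92.0 FPKM with WT neutrophils and 149, 146 and 147 FPKM with KO neutrophils (log2 change 0.64, adjusted p = 1.4e-05). Uhrf1 (28.6 to 41.6 FPKM, log2 change 0.53, adjusted p = 8.02e-05) and Dnmt1 (27.5 to 36.7 FPKM, log2 change 0.41, adjusted p = 0.000132), which copy DNA methylation at the fork, also rose. Cdc45 (34.6 to 27.9 FPKM, log2 change -0.30, adjusted p = 0.00035) and Cdt1 (41.0 to 36.0 FPKM, log2 change -0.18, adjusted p = 0.0085), which belong to the loading and firing of origins, were lower, as was the polymerase gene Pole (log2 change -0.17, adjusted p = 0.0355).

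**Figure D4:**
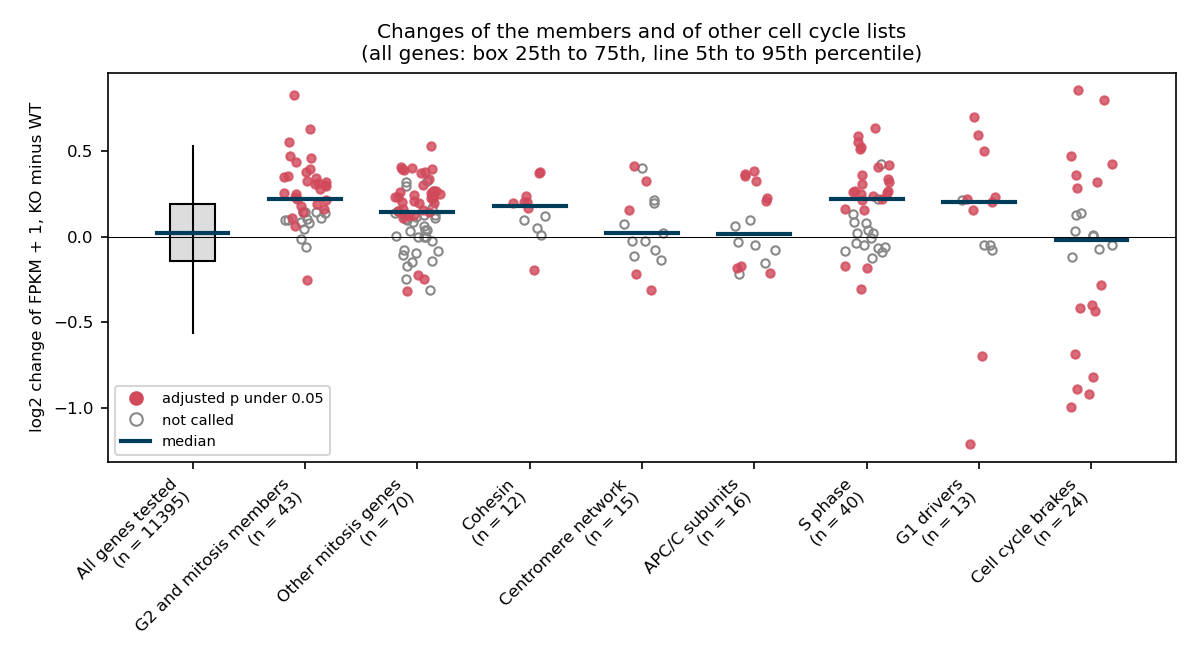
Log2 change (KO minus WT neutrophils, log2(FPKM + 1) scale) of each tested gene in the 8 lists, with filled points for an adjusted p under 0.05 and a bar at the median, beside a box for all 11395 genes (25th to 75th percentile, line 5th to 95th). The medians of the 43 genes (0.22) and of the replication genes (0.22) are the highest, those of the centromere network (0.022) and APC/C (0.015) lie near that of all genes (0.024), and the brakes reach far in both directions around a median of -0.020.

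Upstream of mitosis, 7 of 13 genes that drive the G1 phase were called higher (53.8%) and 2 lower (15.4%), beside 24.5% and 18.8% of all genes. Ccnd2, a D-type cyclin, was measured at 21.0, 20.7 and 21.0 FPKM with WT neutrophils and 31.4, 32.6 and 32.1 FPKM with KO neutrophils (log2 change 0.59, SE 0.026, adjusted p = 1.25e-05), and its partner gene Cdk6 at 11.8, 11.7 and 11.6 FPKM with WT neutrophils and 6.51, 7.14 and 6.86 FPKM with KO neutrophils (log2 change -0.70, SE 0.042, adjusted p = 4.82e-05). The cyclin rose while this kinase fell, and Cdk4, the other partner, went from 39.3 ± 2.06 to 46.0 ± 1.36 FPKM (log2 change 0.22, adjusted p = 0.00831). Ccne2 (5.99 to 8.90 FPKM, log2 change 0.50, adjusted p = 0.000424), Ccne1 (11.4 to 13.3 FPKM, log2 change 0.20, adjusted p = 0.00799), Ccnd1 (24.4 to 27.3 FPKM, log2 change 0.16, adjusted p = 0.0142) and E2f1 (12.3 to 14.7 FPKM, log2 change 0.23, adjusted p = 0.0232) rose. Cdk2 was measured at 3.25, 3.84 and 6.13 FPKM with WT neutrophils and 7.46, 7.72 and 7.54 FPKM with KO neutrophils, with a wide spread over the WT libraries (log2 change 0.70, adjusted p = 0.0225). Myc, a transcription factor that promotes growth, was measured at 2.37, 2.78 and 3.92 FPKM with WT neutrophils and 0.581, 0.759 and 0.819 FPKM with KO neutrophils (log2 change -1.21, SE 0.15, adjusted p = 0.00106), and was the only one of the 13 past 2-fold on the log2(FPKM + 1) scale.

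The list of cell cycle brakes, which also holds Trp53 and its regulator Mdm2, had calls in both directions. Of 27 listed, 24 were tested, 7 were called higher (29.2% of those tested) and 9 lower (37.5%), beside 24.5% and 18.8% of all genes, with a median log2 change of -0.020. Lower with KO neutrophils were Btg1, an antiproliferative factor (40.0, 36.9 and 37.0 FPKM with WT neutrophils and 18.4, 18.7 and 18.5 FPKM with KO neutrophils, log2 change -0.99, SE 0.038, adjusted p = 6.62e-06), and Mdm2, which restrains p53 and is thus the opposite of a brake, though it stood on this list as a gene of the p53 loop (25.3, 24.7 and 25.2 FPKM with WT neutrophils and 13.2, 12.9 and 12.3 FPKM with KO neutrophils, log2 change -0.91, SE 0.035, adjusted p = 6.99e-06). The gene of the CDK inhibitor p21, Cdkn1a, was also lower (22.7, 22.4 and 22.4 FPKM with WT neutrophils and 17.0, 16.0 and 16.8 FPKM with KO neutrophils, log2 change -0.42, SE 0.032, adjusted p = 0.000145). Btg2 (4.03 to 1.71 FPKM, log2 change -0.89, adjusted p = 5.05e-05) and Gadd45a (17.9 to 10.8 FPKM, log2 change -0.69, adjusted p = 0.000523), growth arrest genes, fell as well. Ccng1, a cyclin gene that p53 induces (12.0 to 13.3 FPKM, log2 change 0.14, adjusted p = 0.121), and Trp53 itself (38.0 to 38.1 FPKM, log2 change 0.0059, adjusted p = 0.952) were not called. Higher with KO neutrophils were Tob1, another antiproliferative factor (5.21 to 10.3 FPKM, log2 change 0.86, adjusted p = 0.000177), Cdkn2c, the inhibitor p18 of CDK4 and CDK6 (2.39 to 4.90 FPKM, log2 change 0.80, adjusted p = 0.000299), and the retinoblastoma family genes Rb1 (6.58 to 8.47 FPKM, log2 change 0.32, adjusted p = 0.00137), Rbl1 (9.12 to 13.0 FPKM, log2 change 0.47, adjusted p = 0.000106) and Rbl2 (4.62 to 5.86 FPKM, log2 change 0.29, adjusted p = 0.00656). Rbl1 and E2f8 (5.83 to 8.17 FPKM, log2 change 0.43, adjusted p = 0.000704) are themselves genes that rise in S phase in many cells.

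**Figure D5:**
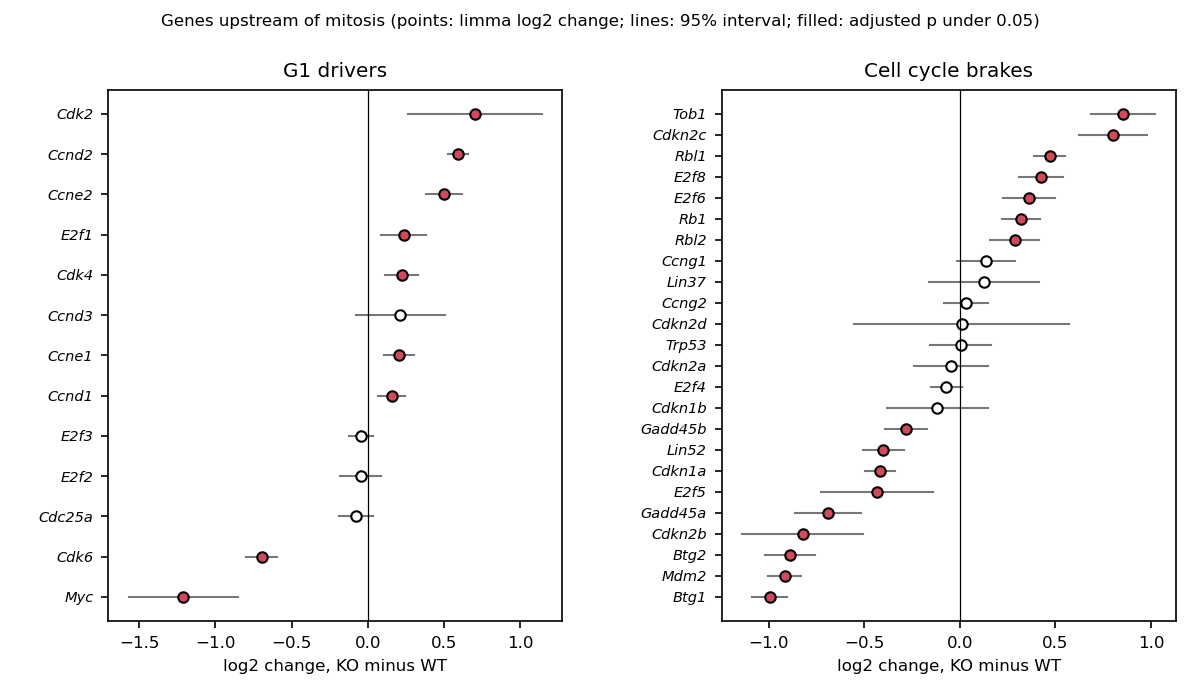
Limma log2 change (KO minus WT neutrophils, log2(FPKM + 1) scale, points) with its 95% interval (lines) for the 13 G1 drivers on the left and the 24 tested cell cycle brakes on the right, filled where the adjusted p was under 0.05. Myc and Cdk6 lie on the lower side of the drivers, and the brakes run from Btg1 at the lowest value to Tob1 at the highest.

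Markers of other cells in the cultures were at low levels in both arms, and some of their sums differed between the arms by more than the median of the 43 genes did. The summed level of 14 neutrophil markers was 1.89 to 2.05 FPKM with WT and 0.913 to 1.30 FPKM with KO neutrophils, with none over the filter and 7 of them, Ly6g included, at 0 in all libraries. The summed level of 8 astrocyte markers was 12.3 to 13.3 FPKM and 15.7 to 17.1 FPKM, nearly all of it Aldoc, with 4 at 0. The 5 monocyte markers summed to 2.96 to 3.77 FPKM and 3.82 to 4.10 FPKM, most of it F10, and 2 were at 0. Oligodendrocyte lineage markers (8 genes, 0.377 to 0.456 and 0.355 to 0.512 FPKM), fibroblast and vascular markers (8 genes, 0.230 to 0.300 and 0.0493 to 0.0588 FPKM), neuron markers (5 genes, 0.441 to 0.622 and 0.535 to 0.680 FPKM) and lymphocyte markers (6 genes, 0 to 0.0876 and 0 to 0.0433 FPKM) summed to under 1 FPKM. The fibroblast and vascular sum, most of it Pecam1, was lower in every KO library than in any WT library, as was the neutrophil sum. The astrocyte and monocyte sums were higher in every KO library than in any WT library. The 43 genes alone summed to 894.9 FPKM or more in every library. The part of these markers in the changes was not tested.

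Exons of 13 of the 43 genes overlap another annotated gene, 6 of them over more than 10% of their exonic bases, and 9 genes share more than 10% of their 50-base stretches with other genes. Without the genes over 10% in either measure, 33 genes remained, of which 23 were called higher and 1 lower, with a median log2 change of 0.22.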

How the data were processed

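RNA from 6 libraries of sorted microglia had been sequenced, 3 per neutrophil genotype, with groups and replicate numbers as the titles give them. What the authors deposited is 1 FPKM table in which each library has its own column. The submitters' processing notes name fastp 0.17.1, HISAT2 2.1.0, DESeq2 1.18.1 and R 3.4.3 with no role. The program that made the FPKM values, the genome build and the annotation are not given in the sources used here, and the labels and the study's methods name different library kits. FPKM carries no fragment numbers. Their spacing gave only an approximate depth, since 21.2% to 24.6% of low values came out whole within 0.05 of a fragment, against 10% by chance, so no count test was run and no counting interval is given.

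Of 55335 identifiers, 55154 (99.67%) matched a symbol in GENCODE M21 (GRCm38). The pseudocount was 1, which understates the change of low genes, and the minimum mean 1 FPKM. The test was limma 3.58.1 in R 4.3.3 (lmFit, eBayes with a mean-variance trend, no covariate). A check on simulated data drew independent normal noise for each library, so it says nothing about libraries that may be technical replicates. An exact permutation test of 3 libraries against 3 cannot give a two-sided p under 0.1 and was not used. Other settings were another pseudocount, other filters, TPM, nuclear gene, median and quantile scaling, no trend, array weights, the replicate number as a block, and each library left out. The main fit did not pair libraries by number.

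The members and lists were chosen with earlier results of these data known. Each member was named. Values in every library were given for Mki67, Top2a, Cdk1, Ccnb1, Plk1 and Aurkb, for the smallest p and the largest change in each role, and for members not called or called lower. From other lists up to 3 called genes per direction and 2 not called could be named, and any tested driver or brake. Cdc23, Mybl2 and the partner ratios were chosen after their values were seen. Promoters came from RefSeq (GRCm38.p6) and were searched for TTTGAA and CCAAT on both strands. One marker gene is not reported here.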

Additional observations from a re-analysis of the deposited data

How the results depend on the processing

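The call counts, the median change of the 43 genes and their single changes, with that of Foxm1, were recomputed under 16 other settings. Of these, 10 used all libraries and 6 left out 1 library each. Cdc25c was tested under 15, since its mean lay under 5 FPKM. Other values, such as those of markers, partner ratios and single genes on the other lists, are given for the main setting only. Of the 43 genes, 26 to 30 were called higher and 1, Bub1, lower under every setting, and none passed a fitted change of 2-fold. Of the 30 called genes, 27 were called under all 16 settings. The exceptions were Ect2 (10 of 16), Incenp (9 of 16) and Tpx2 (6 of 16). Of the 13 genes not called, 5 were called under at least 1 setting. Of 687 comparisons of single genes with a setting, 655 kept both the call and the direction, 23 lost the call, 7 gained it and 2 changed sign. Both sign changes were those of Cdc25c, whose log2 change of -0.014 lay between -0.051 and 0.017 with 1 library left out (0.017 without WT replicate 1, 0.013 without KO replicate 2). The median log2 change of the 43 genes, 0.22, was 0.25 with a pseudocount of 0.1, by construction since less is added to each value, 0.17 on the TPM scale, and 0.21 to 0.25 with 1 library left out. Calls over all genes were 4930, 3763 at a minimum mean of 5 FPKM, which tests fewer genes, and 4081 to 4229 with 1 library left out. Of the centromere network, 5 genes were called, 3 at that minimum and 4 to 5 with 1 library left out. Of the APC/C genes, 9 were called and 5 to 8 with 1 library left out, the 5 being without KO replicate 2, and those called higher were 3, against 6, at a minimum mean of 5 FPKM, which leaves low genes such as Cdc26 untested, and also with no filter, with the replicate block and without KO replicate 2, where the cause was not tested. With the replicate number as a block, 27 of the 43 genes were called higher and 1 lower, and 4212 of all genes were called. Libraries that shared a number showed no common deviation (correlations of -0.075, -0.052 and -0.005). With 3 libraries per arm, such values cannot settle whether cultures or donors were paired. Depth per gene is unknown, and 3 libraries per arm limit what could be called.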
